A study of Mus musculus with 18 samples.

Results

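The genes described here are the 10 genes of the cyclin D, cyclin E, CDK inhibitor and p53 group that govern the passage of a cell from G1 into S phase. They were chosen by gene name from the 55469 genes analysed, as 5 G1 cyclins (Ccnd1, Ccnd2, Ccnd3, Ccne1 and Ccne2), 4 CDK inhibitors (Cdkn1a, Cdkn1b, Cdkn2a and Cdkn2b) and Trp53. Their levels were measured by RNA-Seq in 18 mouse libraries, with 2 libraries in each of 9 groups.

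OSKM-ESCs were a Tet-On-OSKM/Oct4-GFP embryonic stem cell line moved from 2iL medium into N2B27 with 2 μg/mL doxycycline (DOX), and 2iL-ESCs were the same line kept in 2iL. 2iL is N2B27 with the MEK inhibitor PD0325901, the GSK3 inhibitor CHIR99021 and LIF. ESCs of both media were collected at days 18, 25 and 38. OSKM-iPSCs (clones 1 and 3) were reprogrammed from Tet-On-OSKM fibroblasts and kept in N2B27 with DOX, 2iL-iPSCs (clones 3 and 6) were reprogrammed in 2iL with DOX, and MEF were fibroblasts at passage 4. DOX drives the polycistronic Oct4, Sox2, Klf4 and c-Myc (OSKM) transgene through M2rtTA expressed from Rosa26. The transgene sits in the Col1a1 locus and was carried by every group. The ESCs descended from a cross of (C57BL/6 x 129S4/SvJae)F1 with (CBA/CaJ X C57BL/6J)F2, and the iPSCs and MEF were (C57BL/6 x 129S4/SvJae)F1. The ESCs were 1 line, each iPSC library was 1 clone, and ESCs and induction cultures shared the dish with mitomycin C-treated fibroblast feeders. For daily culture of the 2iL-iPSCs the labels give N2B27 with DOX, whereas the methods of the study give 2iL without DOX, so the medium of this group at collection is uncertain and the groups follow the sample titles. OSKM-iPSC clone 1 was at passage 7 and clone 3 at passage 6, while 2iL-iPSC clone 3 was at passage 2 and clone 6 at passage 3. Medium cannot be told apart from passage here. No label says that the libraries of a group came from independent derivations, so p-values measure only the spread between these libraries, which may be technical.

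In G1, D-type cyclins bind CDK4 and CDK6, and E-type cyclins bind CDK2. Both kinds of complex phosphorylate the retinoblastoma proteins, which frees E2F factors to switch on the genes of DNA replication. Ink4 proteins (from Cdkn2a and Cdkn2b) block CDK4 and CDK6, and p21 and p27 (from Cdkn1a and Cdkn1b) block CDK2 complexes. The Arf protein, the other product of Cdkn2a, restrains Mdm2 and thereby stabilises p53, which induces Cdkn1a. In mouse ESCs the G1 phase is short. Ink4a/Arf and p53 are known as barriers to the reprogramming of fibroblasts.

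All 11 pluripotency markers checked, among them Nanog, Esrrb and Pou5f1, were above 1 FPKM (fragments per kilobase of transcript, scaled to the fragments mapped in the library) in the 16 libraries of ESCs and iPSCs, whereas in MEF only Sox2 was. Reads from the transgene add to Pou5f1 and Sox2. Summed over 12 fibroblast markers, FPKM was 1276 to 1441 in MEF, 20.6 to 35.3 in OSKM-ESCs, 4.36 to 7.26 in 2iL-ESCs and 2.65 to 4.50 in 2iL-iPSCs. It was 93.1 in OSKM-iPSC clone 1 and 6.74 in clone 3, so this clone 1 stood apart. Of 12 early lineage markers, 7 to 8 were above 1 FPKM in OSKM-ESCs at day 38 and 2 to 3 in all other libraries. Between 11303 and 12095 genes per library exceeded 1 FPKM. The number of reads is not known from the files. Mean coverage per base was 2.63 to 3.21 times the FPKM, a ratio that grows with the number of reads. In a bulk library, fewer cells expressing a gene and less RNA per cell cannot be told apart.

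Between the media, the D-type cyclins of ESCs differed in opposite directions. In all 6 OSKM-ESC libraries Ccnd1 and Ccnd2 were above, and Ccnd3 below, all 6 libraries of 2iL-ESCs. Of the CDK inhibitors, Cdkn1a and Cdkn2a were lower and Cdkn2b was higher in OSKM medium, while Cdkn1b, Ccne1, Ccne2 and Trp53 did not pass the test over all days. In iPSCs the pattern of the inhibitors was another: Cdkn2a and Cdkn2b were both higher in OSKM-iPSCs than in 2iL-iPSCs. These differences come from limma on log2(FPKM + 1), with Benjamini-Hochberg adjustment over all genes tested and a call at an adjusted p under 0.05. Errors printed after a log2 difference are SE. A log2 difference on this scale understates the change of genes with low FPKM.

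**Figure D1:**
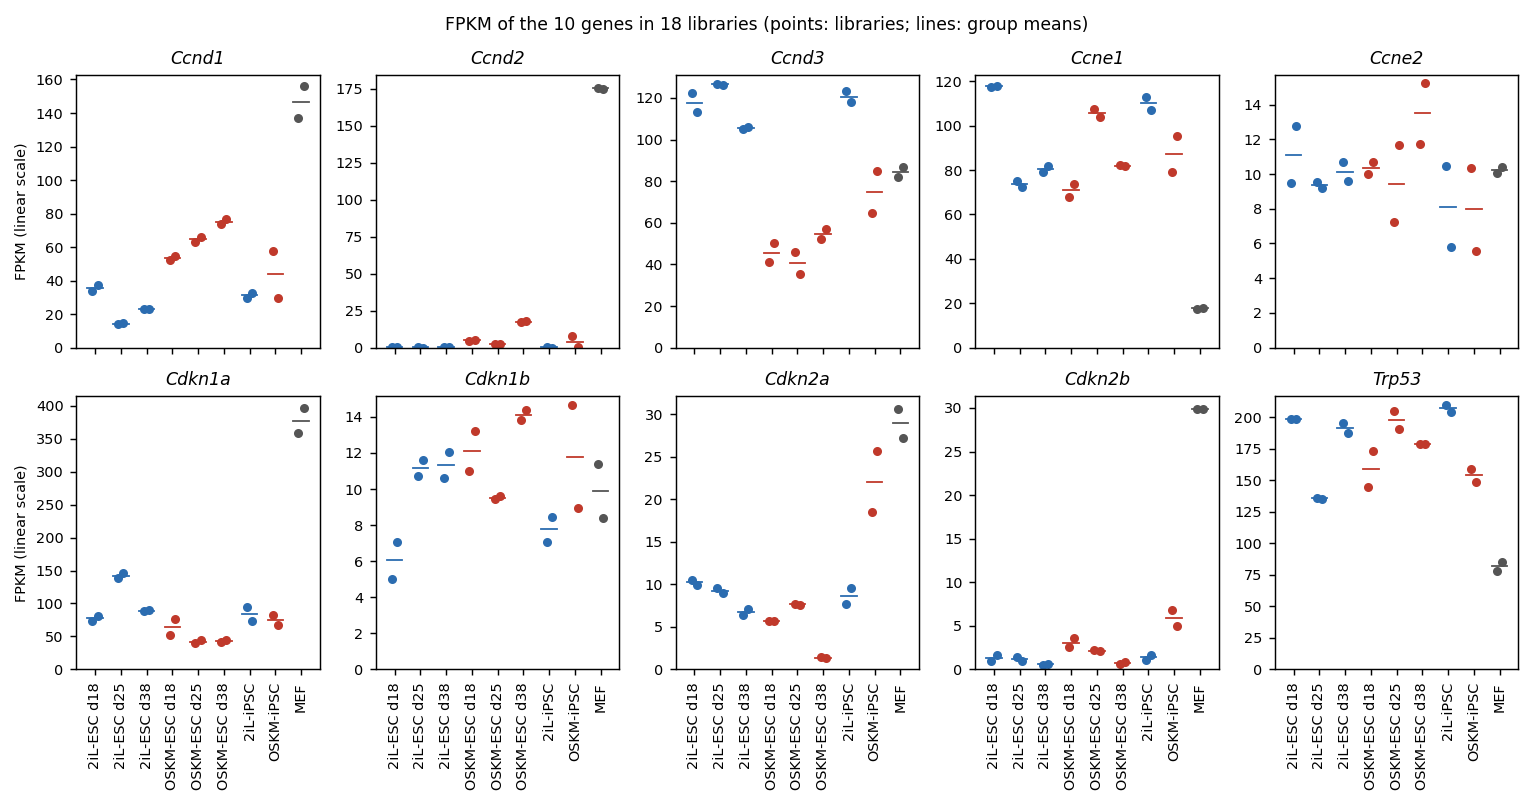
FPKM (vertical axis, linear, a separate scale per gene) of the 10 genes in each of 18 libraries, by group (horizontal axis; points are libraries, lines are means of 2 libraries, 2iL groups are blue, OSKM groups red and MEF grey). Ccnd1 and Ccnd3 separate the ESC media in opposite directions, and Ccnd2, Cdkn1a and Cdkn2b are highest in MEF, at 175 to 176, 359 to 397 and 29.8 to 29.9 FPKM.

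Over all days, 6 of the 10 genes passed the test in ESCs, 3 higher and 3 lower in OSKM-ESCs. Among all 14016 genes tested, 53.8% passed, 29.5% as higher and 24.4% as lower. The count for the 10 genes thus lay near that of the transcriptome. The range of a gene over the 6 OSKM-ESC libraries did not overlap that over the 6 2iL-ESC libraries for 2 genes that were higher and 1 that was lower, where 14.6% and 12.0% of all genes did so. Taken by day, 7 genes passed at day 18 (43.4% of all genes), 7 at day 25 (46.0%), and 6 of the 9 tested at day 38 (59.8%). By the cutoff of the study, a fold of mean FPKM over 2 with an unadjusted p under 0.05, 4 genes passed over all days (24.1% of all genes), and 4 each at days 18 (24.4%), 25 (24.0%) and 38 (25.3%). Cdkn2a and Cdkn2b missed this cutoff over all days, with folds of 1.78 and 1.92. The day mattered for most of them: the difference between the media changed with day in 8 of the 10 genes, against 37.9% of all genes, with Ccne2 and Cdkn2b as the exceptions.

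Cyclin D1 (Ccnd1, ENSMUSG00000070348, chr7:144929931-144939925, minus strand of GRCm38) links mitogen signals, including those of the MEK/ERK pathway, to CDK4 and CDK6. Its FPKM in OSKM-ESCs was 52.4 and 54.7 at day 18, 63.3 and 66.3 at day 25, and 73.7 and 76.7 at day 38. In 2iL-ESCs it was 34.1 and 37.1, 13.9 and 14.8, and 23.1 and 23.1 on the same days. Every OSKM-ESC library lay above every 2iL-ESC library, and the gap was narrowest at day 18. Mean FPKM was 2.65-fold higher in OSKM-ESCs, with a log2 difference of 1.44 ± 0.19 (SE, n = 6 per medium, adjusted p = 5.96e-05), and the exact permutation test within days gave p = 0.00926, the smallest that it allows. The log2 difference was 0.58 at day 18, 2.10 at day 25 and 1.66 at day 38. It passed the test on each day, but at day 18 not when the first 2iL-ESC library was left out (0.52, adjusted p = 0.0708). LTO1, on the opposite strand, shares 23.4% of the exonic bases of Ccnd1. Its own FPKM was 2.85 to 9.51, and the library kit does not mark strand.

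Cyclin D2 (Ccnd2, ENSMUSG00000000184, chr6:127125162-127152193, minus strand) is a D-type cyclin that differentiated cells often carry. It was close to absent from 2iL-ESCs, with FPKM of 0.394 and 0.516 at day 18, 0.0988 and 0.301 at day 25, and 0.231 and 0.432 at day 38. In OSKM-ESCs the values were 4.49 and 5.25, 2.39 and 2.72, and 17.3 and 17.8. The lowest OSKM-ESC library thus exceeded the highest 2iL-ESC library. The log2 difference was 2.46 ± 0.30 (SE, n = 6 per medium, adjusted p = 2.5e-05, exact permutation p = 0.00926), and it was largest at day 38, at 3.81 ± 0.11. Fibroblast markers moved in the same direction. Of the 9 markers tested, 8 rose in OSKM-ESCs and 0 fell. Col3a1, Dcn, Postn, Pdgfrb and Fbn1 were at most 0.873 FPKM in 2iL-ESCs and passed the filter only through OSKM-ESCs. That count was thus partly set by the filter. The sum of all 12 fibroblast markers, which no filter touched, did not overlap between the media. In OSKM-ESCs this sum was highest at day 18 (33.1 to 35.3 FPKM) and not at day 38 (21.4 to 22.0 FPKM), when Ccnd2 was highest. As a share of the MEF level, Ccnd2 at day 38 stood at 9.88 to 10.2% and the fibroblast markers at 1.58 to 1.62%, whereas at day 18 Ccnd2 stood at 2.56 to 2.99% and the markers at 2.43 to 2.59%. At day 38, 7 to 8 of 12 lineage markers were above 1 FPKM in OSKM-ESCs and 2 in 2iL-ESCs. Of the 8 tested, 7 rose and 1 fell, where 4551 of 13142 genes rose and 3314 fell. Most of the 8 passed the filter of 1 FPKM only through the OSKM-ESC libraries. Their split was thus largely set by the filter and cannot show a rise of the list. The sum of the 12 was 70.5 to 70.8 FPKM, against 65.0 to 66.8 FPKM in 2iL-ESCs of that day. Tubb3 went the other way, at 24.8 to 33.5 FPKM in OSKM-ESCs of all days and 41.9 to 62.5 FPKM in 2iL-ESCs. Cdx2 had 0.643 to 26.3 FPKM in OSKM-ESCs of all days and at most 1.31 FPKM in 2iL-ESCs. No other lineage marker exceeded 5.97 FPKM (Eomes) in OSKM-ESCs. The part of fibroblasts or of differentiating cells in these values was not tested.

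Cyclin D3 (Ccnd3, ENSMUSG00000034165, chr17:47505051-47599691, plus strand) went the other way. Its FPKM was 41.0 and 50.1, 46.0 and 35.4, and 52.4 and 56.8 in OSKM-ESCs at days 18, 25 and 38. In 2iL-ESCs it was 122 and 113, 127 and 126, and 105 and 106. The media did not overlap on any day. Mean FPKM was 2.48-fold lower in OSKM-ESCs, with a log2 difference of -1.31 ± 0.11 (SE, n = 6 per medium, adjusted p = 1.37e-06, exact permutation p = 0.00926). The differences were -1.36, -1.62 and -0.94 at days 18, 25 and 38, and each passed the test.

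The make-up of the D-type cyclin transcripts differed between the media, whereas the direction of their sum depended on the measure. Summed FPKM of the 3 genes was 97.9 to 151 in OSKM-ESCs and 129 to 157 in 2iL-ESCs, with overlap. OSKM-ESCs had the lower sum at days 18 and 25 and the higher sum at day 38. By mean coverage per base, which StringTie gives beside FPKM, scaled here to the FPKM of each library, the sum was 86.3 to 131 in OSKM-ESCs and 48.6 to 77.7 in 2iL-ESCs, higher in OSKM-ESCs on each day. In FPKM, Ccnd1 made up 49.7 to 63.5% of the summed D-type cyclins in OSKM-ESCs and 9.84 to 24.6% in 2iL-ESCs. Ccnd3 made up 33.9 to 45.5% and 75.0 to 89.9%. Ccnd2 reached 12.1% in OSKM-ESCs at day 38 and at most 0.342% in 2iL-ESCs. Which gene led also depended on the measure. By coverage, Ccnd1 made up 81.9 to 90.4% in OSKM-ESCs and 39.9 to 66.3% in 2iL-ESCs. The share of Ccnd1 was higher and that of Ccnd3 lower in OSKM-ESCs by both measures. Gene-level FPKM adds up the transcripts of a gene, whereas coverage is averaged over its exons, and Ccnd3 has 21 annotated transcripts. Levels of different genes are therefore compared here only within a stated measure.

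**Figure D2:**
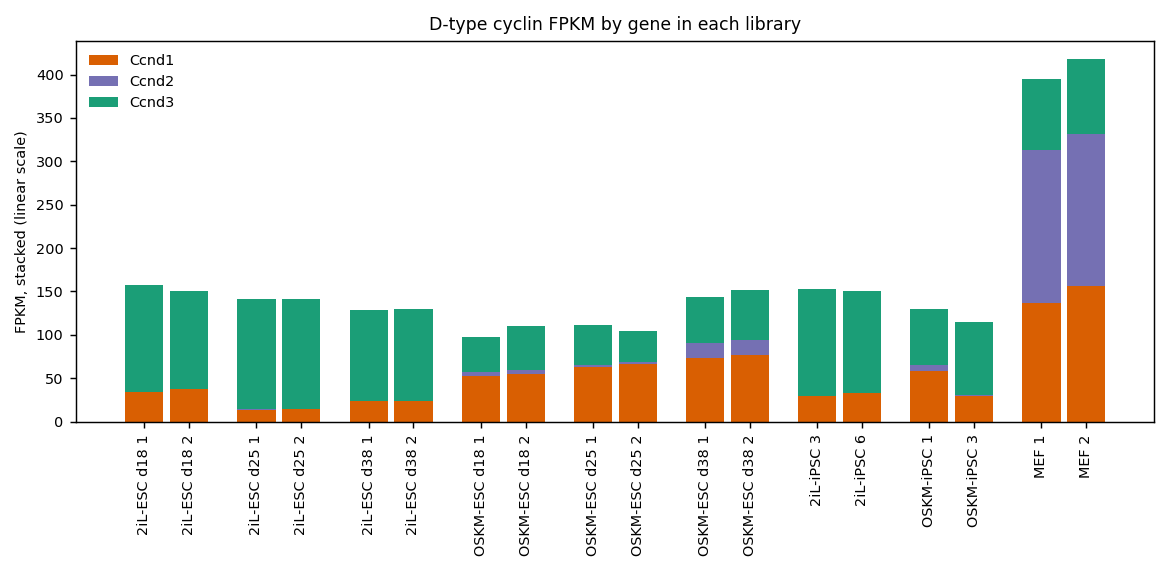
FPKM of Ccnd1, Ccnd2 and Ccnd3 stacked in each library (vertical axis, linear, from 0), with the 18 libraries on the horizontal axis and replicate or clone numbers after the group names. Ccnd3 forms the largest block in all 2iL libraries, Ccnd1 in all OSKM-ESC libraries, and Ccnd2 in the MEF libraries, at 41.9 to 44.5%.

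The E-type cyclins did not pass the test over all days. Cyclin E1 (Ccne1, ENSMUSG00000002068, chr7:38097984-38107534, minus strand) had FPKM of 68.0 and 73.7, 108 and 104, and 82.2 and 81.6 in OSKM-ESCs at days 18, 25 and 38. In 2iL-ESCs it had 117 and 118, 74.9 and 72.2, and 79.2 and 82.0. The order of the media turned over between days: Ccne1 was lower in OSKM-ESCs at day 18 (log2 difference -0.72, adjusted p = 0.0024), higher at day 25 (0.52, adjusted p = 0.00479), and overlapped at day 38. The call at day 25 was lost when either 2iL-ESC library of that day was left out (adjusted p = 0.0736 and 0.0929). Over all days the log2 difference was -0.06, with a 95% confidence interval from -0.40 to 0.28. Cyclin E2 (Ccne2, ENSMUSG00000028212, chr4:11191351-11204779, plus strand) lay at 7.25, 11.2 and 15.2 FPKM in OSKM-ESCs as the lowest, median and highest library, and at 9.22, 9.56 and 12.8 FPKM in 2iL-ESCs. It passed the test on no day, and its interval over all days ran from -0.19 to 0.37. Without the first OSKM-ESC library of day 38, its difference on that day was 0.55 and passed (adjusted p = 0.0385). In place of 0.37 (adjusted p = 0.0563), TPM gave 0.46 and coverage 0.37, and both passed (adjusted p = 0.028 and 0.0479). Ints8, on the opposite strand, shares 17.4% of its exonic bases and had 20.5 to 30.7 FPKM. In FPKM, Ccne1 made up 84.3 to 94.9% of the E-type cyclins in ESCs and iPSCs and 63.3 to 63.7% in MEF.

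p21 (Cdkn1a, ENSMUSG00000023067, chr17:29090976-29100727, plus strand), the CDK2 inhibitor induced by p53, was lower in OSKM-ESCs. Its FPKM in OSKM-ESCs was 52.5 and 76.1 at day 18, 40.2 and 44.0 at day 25, and 41.4 and 43.9 at day 38. In 2iL-ESCs it was 73.3 and 81.4, 138 and 146, and 88.3 and 90.3. Libraries overlapped at day 18 only, through the second OSKM-ESC library. Mean FPKM was 2.07-fold lower over all days, with a log2 difference of -1.02 ± 0.19 (SE, n = 6 per medium, adjusted p = 0.000716, exact permutation p = 0.0185). The difference was -0.28 at day 18 (adjusted p = 0.254), -1.73 at day 25 and -1.05 at day 38, the latter 2 past the test. Without the second OSKM-ESC library, the difference at day 18 was -0.55 and passed (adjusted p = 0.0428).

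The upstream transcription start of Cdkn1a is shown because its window holds words of the p53 consensus. Of the 10 genes, 7 have promoter windows in RefSeq (GRCm38.p6), with 10 starts in all. The window below is chr17:29090729-29090975 (plus strand, 5′ to 3′), the 247 bases before the first annotated exon base. Capitals mark the matches to the p53 consensus decamer, at 73 and 51 bases before the start. This motif was searched after the window had been seen.
Cdkn1a upstream start: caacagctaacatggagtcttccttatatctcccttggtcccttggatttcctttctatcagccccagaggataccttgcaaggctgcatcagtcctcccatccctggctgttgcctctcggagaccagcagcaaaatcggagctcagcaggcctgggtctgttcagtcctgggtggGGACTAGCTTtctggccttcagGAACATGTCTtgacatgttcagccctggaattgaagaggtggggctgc
The decamer occurs in 8.36% of the 32851 RefSeq promoter windows of 300 bases. A pair of decamers at most 13 bases apart occurs in 24 windows (0.0731%), this one included. Among the other windows of the 10 genes, Trp53 holds a single decamer. A match of letters is not evidence of binding.

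p27 (Cdkn1b, ENSMUSG00000003031, chr6:134920401-134925513, plus strand), the inhibitor that accumulates when cells leave the cycle, varied by day. Its FPKM was 11.01 and 13.2, 9.43 and 9.61, and 13.9 and 14.4 in OSKM-ESCs, and 4.99 and 7.09, 10.7 and 11.6, and 10.6 and 12.03 in 2iL-ESCs at days 18, 25 and 38. It was higher in OSKM-ESCs at day 18 (log2 difference 0.91, adjusted p = 0.00729), not different past the test at day 25 (-0.21, adjusted p = 0.141), and higher at day 38 (0.30, adjusted p = 0.0246). The call at day 18 was lost without any of 3 of the 4 libraries (adjusted p up to 0.0824), and that at day 38 likewise (adjusted p = 0.104 to 0.148). The call at day 38 was also lost with median-ratio scaling, quantile normalization, no filter on low values and a single fit of all groups (adjusted p = 0.0541, 0.088, 0.0625 and 0.276). Over all days the difference was 0.33 (adjusted p = 0.0957, exact permutation p = 0.13). Without the second 2iL-ESC library of day 25 it was 0.41 and passed (adjusted p = 0.0483), as did the difference in the single fit (adjusted p = 0.0299).

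Cdkn2a (ENSMUSG00000044303, chr4:89274471-89294653, minus strand) encodes p16Ink4a and p19Arf from separate first exons, and the gene-level value pools both. Its FPKM in OSKM-ESCs was 5.74 and 5.74 at day 18, 7.69 and 7.60 at day 25, and 1.42 and 1.31 at day 38. In 2iL-ESCs it was 10.5 and 9.92, 9.52 and 8.998, and 6.38 and 7.13. On each day both OSKM-ESC libraries lay below both 2iL-ESC libraries, and the day 38 libraries of OSKM-ESCs were the lowest of all 18. The log2 difference over all days was -0.90 ± 0.19 (SE, n = 6 per medium, adjusted p = 0.00171, exact permutation p = 0.00926). By day it was -0.74 (adjusted p = 0.00298), -0.25 (adjusted p = 0.0968) and -1.71 (adjusted p = 0.000117), so the fall passed the test at days 18 and 38. At day 18 it missed the threshold without the first 2iL-ESC library (adjusted p = 0.0565). Mean FPKM was 4.95-fold lower in OSKM-ESCs at day 38.

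Cdkn2b (ENSMUSG00000073802, chr4:89306299-89311039, minus strand) lies next to Cdkn2a and encodes p15Ink4b, an inhibitor of CDK4 and CDK6. It was low in all ESCs, at 2.53 and 3.56, 2.22 and 2.08, and 0.570 and 0.807 FPKM in OSKM-ESCs and at 1.001 and 1.62, 1.39 and 0.928, and 0.530 and 0.665 FPKM in 2iL-ESCs. The OSKM-ESC libraries were above the 2iL-ESC libraries at days 18 and 25 and overlapped with them at day 38, where no library passed 1 FPKM and the gene was not tested. Over all days the log2 difference was 0.48 ± 0.14 (SE, n = 6 per medium, adjusted p = 0.0123, exact permutation p = 0.0185). The calls at days 18 and 25 (0.81 and 0.55) were lost without 3 of the 4 and any of the 4 libraries, respectively (adjusted p = 0.0582 to 0.197). The neighbours thus differed between the media in opposite directions in ESCs.

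The starts of this locus are shown because both genes moved together in iPSCs. The windows, on the minus strand of chr4 and written 5′ to 3′, end at the last base before the first annotated exon base. Capitals mark an E2F-type word (TTT, any 2 bases, then CGC), searched on both strands. The upstream start of Cdkn2a, that of Arf, has the window chr4:89294654-89294869, the downstream start, that of Ink4a, has chr4:89282193-89282442, and Cdkn2b has chr4:89311040-89311282.
Cdkn2a, Arf start: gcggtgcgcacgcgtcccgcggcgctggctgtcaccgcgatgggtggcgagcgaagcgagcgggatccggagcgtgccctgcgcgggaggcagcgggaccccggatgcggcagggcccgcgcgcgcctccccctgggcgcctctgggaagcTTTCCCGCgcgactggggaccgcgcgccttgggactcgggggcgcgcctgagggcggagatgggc
Cdkn2a, Ink4a start: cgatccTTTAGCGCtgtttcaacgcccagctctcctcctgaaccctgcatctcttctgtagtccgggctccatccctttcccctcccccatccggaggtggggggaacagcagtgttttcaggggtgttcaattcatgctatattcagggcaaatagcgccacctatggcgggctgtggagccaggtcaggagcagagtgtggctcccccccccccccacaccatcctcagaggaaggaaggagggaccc
Cdkn2b start: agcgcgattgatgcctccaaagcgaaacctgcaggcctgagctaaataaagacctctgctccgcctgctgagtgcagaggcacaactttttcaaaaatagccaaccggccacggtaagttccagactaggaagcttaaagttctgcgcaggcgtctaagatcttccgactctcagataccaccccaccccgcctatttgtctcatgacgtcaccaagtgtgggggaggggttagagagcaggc
The E2F-type word occurs at both Cdkn2a starts, 99 and 244 bases before them, and in 5.17% of all RefSeq windows. It was not found in the windows of Cdkn2b, Ccnd3, Ccne1, Cdkn1a, Cdkn1b or Trp53. An E-box (CAC followed by GTG), which 7.15% of windows hold, was found in that of Trp53 alone, 10 bases after the start. These are letters in a window, and no factor binding was measured.

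p53 (Trp53, ENSMUSG00000059552, chr11:69580359-69591873, plus strand) was abundant in all pluripotent libraries, at 135 to 210 FPKM. Its values in OSKM-ESCs were 145 and 173, 205 and 190, and 179 and 179 FPKM at days 18, 25 and 38. In 2iL-ESCs they were 198 and 198, 136 and 135, and 195 and 187 FPKM. As with Ccne1, the OSKM-ESC libraries were below at day 18 (log2 difference -0.32, adjusted p = 0.0825) and above at day 25 (0.54, adjusted p = 0.00444). The difference at day 18 passed without the second OSKM-ESC library (adjusted p = 0.0451), with median-ratio scaling (adjusted p = 0.0466) and in the single fit (adjusted p = 0.00856). At day 38 the difference was -0.10 (adjusted p = 0.0752). It was -0.16 with median-ratio scaling, which passed (adjusted p = 0.0138), and 0.0019 after quantile normalization (adjusted p = 0.969). The call at day 25 was lost without either 2iL-ESC library (adjusted p = 0.0796 and 0.0842). Over all days the difference was 0.04, with a 95% confidence interval from -0.22 to 0.30.

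**Figure D3:**
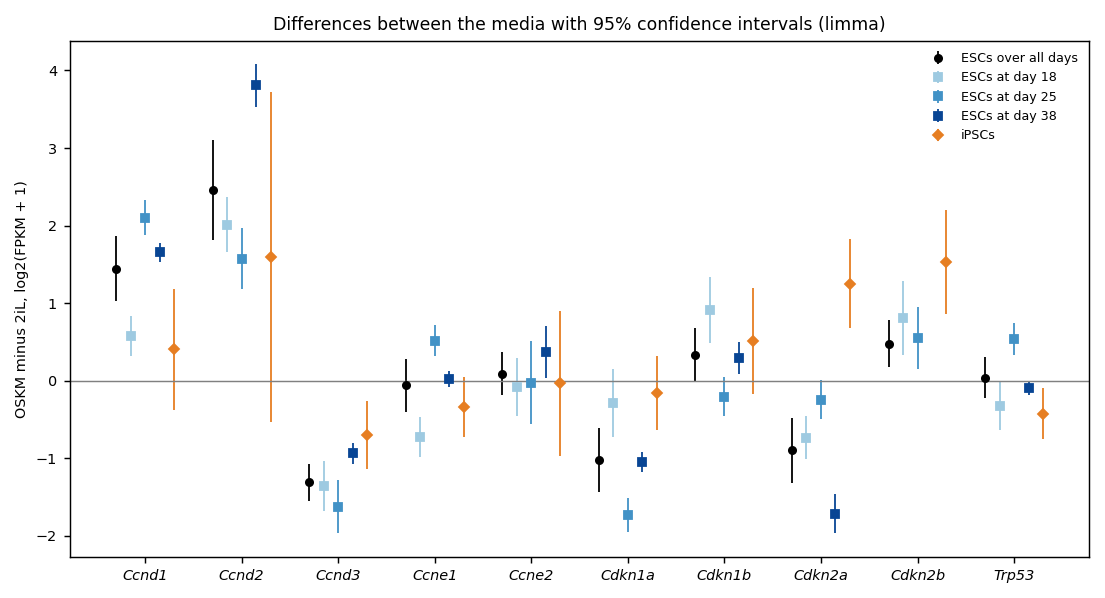
Log2(FPKM + 1) difference, OSKM minus 2iL (vertical axis), for the 10 genes (horizontal axis), where points are limma estimates for ESCs over all days (n = 6 per medium), ESCs by day and iPSCs (n = 2 per medium), and bars are 95% confidence intervals. Cdkn2a lies below 0 in ESCs (-0.90 over all days) and above 0 in iPSCs (1.25), and Cdkn2b at day 38 was not tested.

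The other genes around this switch were read from lists. Of 17 further p53 target genes, 16 were tested in ESCs over all days, and 11 rose and 1 fell in OSKM-ESCs, where 29.5% of all genes rose. Their median log2 difference was 0.69, against 0.03 for all genes. The largest rises were those of Perp (2.54), a desmosome-associated gene, Pmaip1 (2.05), which encodes the pro-apoptotic Noxa, and Plk2 (1.33). Pmaip1 had 28.9, 37.0 and 50.6 FPKM as the lowest, median and highest OSKM-ESC library and 6.18, 7.11 and 12.2 FPKM in 2iL-ESCs, without overlap. Sesn1, a stress-response gene, fell by 0.60 on the log2 scale. Mdm2, which encodes the ligase that degrades p53, had a difference of 0.10 (adjusted p = 0.536). Cdkn1a, the best known target, thus fell while most of the list rose. The fibroblast marker sums given above moved with this list too. In MEF, Perp had 56.3 to 68.4 FPKM and Plk2 90.9 to 107 FPKM, above all OSKM-ESC libraries. Pmaip1 had 21.0 to 24.6 FPKM in MEF, below all OSKM-ESC libraries. The part of fibroblasts was not tested.

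**Figure D4:**
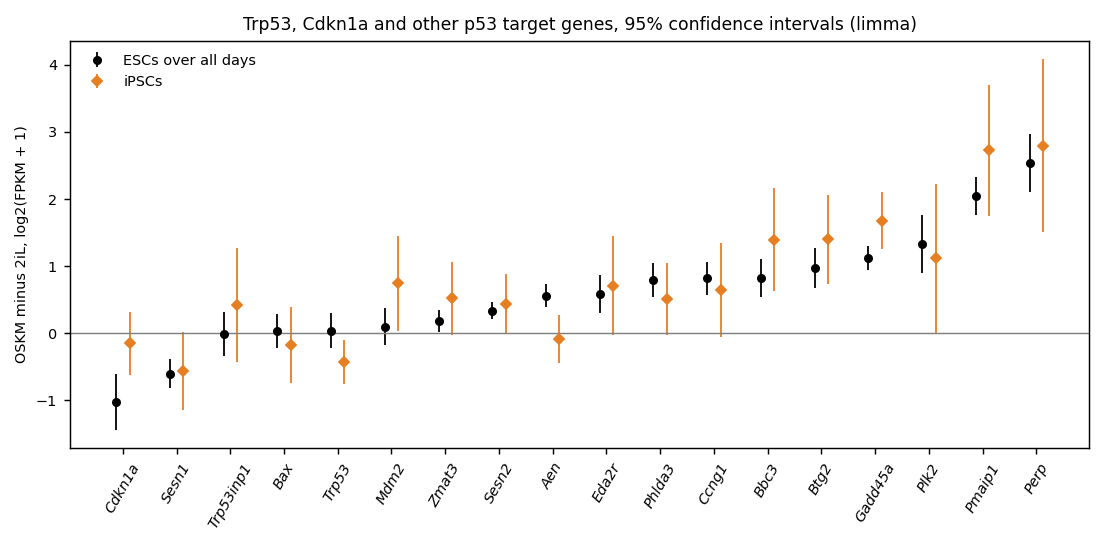
Log2(FPKM + 1) difference, OSKM minus 2iL (vertical axis), of Trp53, Cdkn1a and the 16 tested p53 targets (horizontal axis, ordered by the ESC estimate), where points are limma estimates with 95% confidence intervals for ESCs over all days (n = 6 per medium) and iPSCs (n = 2 per medium). Cdkn1a is the lowest in ESCs at -1.02, and Perp the highest at 2.54.

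Of 23 other G1/S genes, 7 rose and 6 fell in OSKM-ESCs, shares near the 29.5% and 24.4% of all genes. Cdkn1c, which encodes p57, the remaining inhibitor of the p21 and p27 family, rose by 3.02 ± 0.16 (adjusted p = 2.86e-08), from 1.10 to 3.16 FPKM in 2iL-ESCs to 17.7 to 41.6 FPKM in OSKM-ESCs. Cdk2, the partner of E-type cyclins, fell by 0.79 on the log2 scale, from 65.2 to 73.1 FPKM to 38.0 to 41.3 FPKM, and its differences on the 3 days lay between -0.76 and -0.81. E2f6 (1.10) and Cks1b (0.70) rose, and the Ink4 gene Cdkn2c (-0.58) and the retinoblastoma relative Rbl1 (-0.50) fell. Cdkn2c was near the floor, at 0.250 to 0.663 FPKM in OSKM-ESCs and 0.432 to 1.89 FPKM in 2iL-ESCs. It passed the filter of 1 FPKM only through 2iL-ESCs. By day, Rbl1 passed at day 25 (-0.96) but not at days 18 and 38 (-0.34 and -0.20, limma adjusted p = 0.0699 and 0.151). Of 13 regulators of p53 and Ink4a/Arf, 12 were tested, and 2 rose (Trp53bp1 0.75, Ppm1d 0.25) and 7 fell, with a median log2 difference of -0.40 against 0.03 for all genes. The largest falls were those of Cbx7 (-1.03), a Polycomb protein known to repress Ink4a/Arf, Mdm4 (-0.76), a p53 antagonist, and Usp7 (-0.60).

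Further along the cycle the median differences over all days were small. Of 17 S-phase genes, 0 rose and 5 fell, where 24.4% of all genes fell. By day, 0 rose and 8 fell at day 18, 1 rose and 5 fell at day 25, and 5 rose and 6 fell at day 38. Among all genes, 3285 of 12774 rose and 2261 fell at day 18. At day 25, 2711 of 13098 rose and 3319 fell, and at day 38, 4551 of 13142 rose and 3314 fell. Over all days the list had the largest falls in Orc1 (-0.67), Tk1 (-0.63) and Cdt1 (-0.56), genes of origin licensing and nucleotide supply. Each of them fell most at day 18, at -0.78, -0.99 and -0.89. Of 13 G2/M genes, 5 rose and 3 fell, where 29.5% and 24.4% of all genes did. Aurkb (0.39), Cdc20 (0.38) and Mki67 (0.34) led the rises, and Top2a (-0.28), Ccnf (-0.18) and Ccnb2 (-0.16) the falls. The median log2 difference was -0.09 for the S-phase list and -0.11 for the G2/M list, against 0.03 for all genes.

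Levels also drifted within a medium. In OSKM-ESCs, 7 of the 10 genes changed over the 3 days, against 38.6% of all genes, with the widest ranges of log2 means in Ccnd2 (2.39) and Cdkn2a (1.87). Without either library of day 38, 3 genes passed. In 2iL-ESCs, whose medium did not change, 7 of the 9 genes tested changed, against 50.8% of all genes. Ccnd1 had the widest range there (1.25), followed by Cdkn1a (0.87) and Cdkn1b (0.82). The call for Ccnd3 (0.26) was lost without any of the libraries of days 25 and 38 (adjusted p = 0.0907 to 0.103). At day 25 the 2iL-ESCs had their lowest Ccnd1, Ccne1 and Trp53 and their highest Cdkn1a. A difference between the media at a single day includes the change within both.

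In iPSCs the comparison of the media rests on 2 clones against 2, and 2 of the 10 genes passed the test, both higher in OSKM-iPSCs. Among all genes 7.96% passed, 5.0% as higher and 2.96% as lower. By the cutoff of the study, the same count of 2 genes passed (17.8% of all genes). Cdkn2a had 18.5 FPKM in OSKM-iPSC clone 1 and 25.7 FPKM in clone 3, against 7.68 and 9.53 FPKM in 2iL-iPSC clones 3 and 6. Its log2 difference was 1.25 ± 0.23 (SE, n = 2 per medium, adjusted p = 0.0373). Cdkn2b had 6.81 and 5.004 FPKM against 1.11 and 1.64 FPKM, a log2 difference of 1.54 ± 0.27 (SE, n = 2 per medium, adjusted p = 0.0341). In both genes the OSKM-iPSC clones lay above the 2iL-iPSC clones, and 62.6% of all genes had no overlap between the media. Without OSKM-iPSC clone 3, Cdkn2a was at 1.02 (adjusted p = 0.0661), and without clone 1, Cdkn2b was at 1.35 (adjusted p = 0.0631). Without either 2iL-iPSC clone neither gene passed (adjusted p = 0.323 to 0.328), nor did any other gene of the transcriptome, although 13.9% and 14.3% of genes then had an unadjusted p under 0.05. Exact permutation of 2 against 2 cannot go below p = 0.333.

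The other members did not pass in iPSCs. In the single fit of all groups, Ccnd2, Ccnd3, Ccne1 and Trp53 passed as well (adjusted p = 0.00152 to 0.033). Ccnd1 was at 57.7 and 29.9 FPKM in OSKM-iPSC clones 1 and 3 and at 29.7 and 32.7 FPKM in the 2iL-iPSCs. Clone 1 alone was above the 2iL-iPSCs, and without it the log2 difference of 0.40 became -0.06. Ccnd2 was likewise at 7.83 FPKM in clone 1 and 0.367 FPKM in clone 3, against 0.101 and 0.209 FPKM. Ccnd3 was lower in both OSKM-iPSC clones (64.5 and 84.9 FPKM) than in both 2iL-iPSC clones (123 and 118 FPKM), at a log2 difference of -0.70 (adjusted p = 0.0698). Without clone 3, Ccnd2 and Ccnd3 passed, at 2.94 and -0.89 (adjusted p = 0.0252 and 0.0436). Trp53 was at 159 and 149 against 210 and 204 FPKM (-0.43, adjusted p = 0.104), and Cdkn1a overlapped at 82.7 and 67.8 against 94.7 and 73.3 FPKM. Ccne1, Ccne2 and Cdkn1b had log2 differences of -0.34, -0.03 and 0.51 (adjusted p = 0.209, 0.964 and 0.267). Clone 1, which had the higher Ccnd1 and Ccnd2, also had the higher fibroblast markers (93.1 against 6.74 FPKM). Clone 3, with the lower fibroblast markers, had the higher Cdkn2a. Of the lists, 4 of 16 p53 targets rose in OSKM-iPSCs and 0 fell (3 rose without clone 1, and none without either 2iL-iPSC clone), among them Perp (2.80) and Pmaip1 (2.73). Of the 23 G1/S genes, E2f6 rose (1.24) and Cdk2 fell (-0.84). Among 12 regulators 0 rose and 2 fell, Cbx7 by 1.38 on the log2 scale. Orc1 (-0.92) alone fell among 17 S-phase genes, and none of 13 G2/M genes passed. Of all genes 5.0% rose and 2.96% fell. The single fit of all groups called 6143 of 13653 genes. In that fit 12 p53 targets rose and 1 fell, and 6 and 2 of the G1/S genes did. Regulators rose in 2 and fell in 5 cases, S-phase genes in 0 and 8, and G2/M genes in 5 and 2.

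Whether the effect of the medium differed between iPSCs and ESCs was tested directly. It did in 6 of the 10 genes, 4 higher and 2 lower in iPSCs, against 14.2% of all genes (8.67% higher and 5.55% lower). For Cdkn2a the log2 difference between the media was 2.15 ± 0.17 higher in iPSCs than in ESCs (adjusted p = 3.89e-05), from -0.90 to 1.25. It was also higher in iPSCs for Cdkn2b (1.06, adjusted p = 0.0139), Cdkn1a (0.87, adjusted p = 0.0133) and Ccnd3 (0.61, adjusted p = 0.034). It was lower for Ccnd1 (-1.04, adjusted p = 0.0171) and Trp53 (-0.47, adjusted p = 0.0113). The ESC side was the mean over days, and the error was the spread within groups, so change with day did not enter the error. At day 18 the ESC differences of Ccnd1, Cdkn1a and Trp53 were 0.58, -0.28 and -0.32, beside 0.40, -0.15 and -0.43 in iPSCs. Ccnd3 was at -0.94 in ESCs at day 38 and -0.70 in iPSCs. Cdkn2b was at 0.81 at day 18 and 1.54 in iPSCs. For Cdkn2a the single days gave -0.74, -0.25 and -1.71, against 1.25 in iPSCs. The calls for Cdkn2a and Trp53 held with every single library left out. Those for Ccnd1 and Cdkn1a were lost without 2iL-iPSC clone 6 (adjusted p = 0.0657 and 0.0651), that for Cdkn2b without 2iL-iPSC clone 3 (adjusted p = 0.0579), and that for Ccnd3 without any of 10 libraries (adjusted p = 0.0502 to 0.104). Without OSKM-iPSC clone 1, Ccnd2 passed as well (-2.22), and without clone 3, Ccne1 (-0.41).

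iPSCs of each medium were also compared with MEF, the cells they came from, and both comparisons share the MEF libraries. OSKM-iPSCs differed in 6 genes, 2 higher and 4 lower, where 60.3% of all genes passed (34.0% higher and 26.4% lower). 2iL-iPSCs differed in 8 genes, 3 higher and 5 lower, where 78.0% did (40.6% higher and 37.4% lower). Ccnd2 was at 176 and 175 FPKM in MEF, and the log2 difference was -5.67 ± 0.93 for OSKM-iPSCs and -7.26 ± 0.10 for 2iL-iPSCs. For Ccnd1 (137 and 156 FPKM in MEF) the differences were -1.79 and -2.19 in the same order. They were -2.32 and -2.16 for Cdkn1a (359 and 397 FPKM) and -2.17 and -3.71 for Cdkn2b (29.9 and 29.8 FPKM). The cyclin E1 and p53 transcripts went up. Ccne1 (17.6 and 17.9 FPKM) was higher by 2.22 and 2.56, and Trp53 (77.9 and 85.2 FPKM) by 0.91 and 1.33. Ccnd3 (81.9 and 87.0 FPKM) was higher in 2iL-iPSCs alone past the test (0.51, against -0.19 in OSKM-iPSCs), a call lost without the first MEF library (adjusted p = 0.0599). Without clone 3, Ccnd3 was lower in OSKM-iPSCs past the test (-0.38, adjusted p = 0.0338). With either MEF library left out, 0 of all genes passed by limma in OSKM-iPSCs, although 41.4% and 41.8% of all genes had an unadjusted p under 0.05. Ccne2 (10.0 and 10.4 FPKM) and Cdkn1b (11.4 and 8.38 FPKM) did not pass in either comparison, but Ccne2 did without OSKM-iPSC clone 1 (-0.77) and without 2iL-iPSC clone 3 (-0.72). All 17 S-phase and all 13 G2/M genes were higher in iPSCs of both media than in MEF.

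Cdkn2a had 30.7 and 27.2 FPKM in MEF. In 2iL-iPSCs the log2 difference was -1.64 ± 0.14 (adjusted p = 0.000333), and in OSKM-iPSCs it was -0.39, with a 95% confidence interval from -0.92 to 0.14 (adjusted p = 0.148). Without OSKM-iPSC clone 3 it was -0.62 and passed (adjusted p = 0.0367), and in the single fit of all groups -0.39 passed (adjusted p = 0.0253). The test of the difference between these comparisons is that of the iPSC media above. OSKM-iPSC clones 1 and 3 held 63.8% and 88.8% of the mean MEF level of Cdkn2a, and 2iL-iPSC clones 3 and 6 held 26.6% and 33.0%. The summed fibroblast markers of the same 4 clones stood at 6.85%, 0.496%, 0.331% and 0.195% of MEF. For Cdkn2b the clones held 22.8%, 16.8%, 3.73% and 5.50%. Clone 3 of the OSKM-iPSCs, a single library, had most of the MEF level of Cdkn2a with under 1% of that of the fibroblast markers. The part of fibroblasts in these values was not tested.

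**Figure D5:**
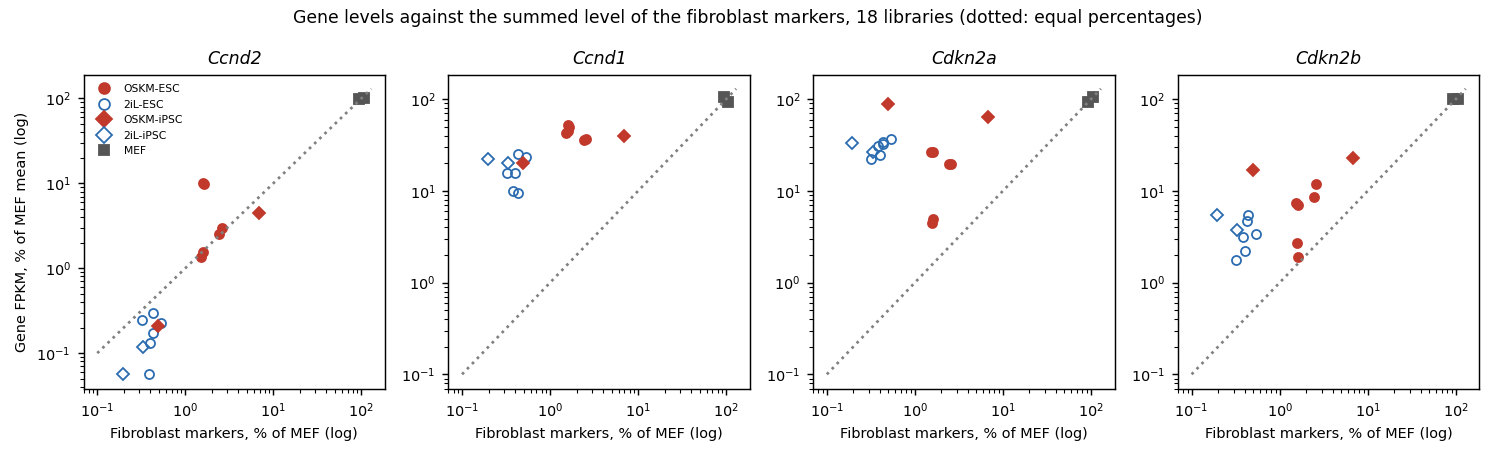
FPKM of Ccnd2, Ccnd1, Cdkn2a and Cdkn2b (vertical axes, percent of the MEF mean, log scale) against the summed FPKM of 12 fibroblast markers (horizontal axes, percent of the MEF mean, log scale) in 18 libraries, where filled symbols are OSKM groups and MEF (squares), open symbols 2iL groups, circles ESCs and diamonds iPSCs, and the dotted line marks equal percentages. Ccnd2 lies near the line in several libraries, and Cdkn2a of OSKM-iPSC clone 3 lies far above it, at 88.8% against 0.496%.

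By group means of FPKM, 5 genes had their highest level in MEF (Ccnd1, Ccnd2, Cdkn1a, Cdkn2a and Cdkn2b), 3 in 2iL-iPSCs (Ccnd3, Ccne1 and Trp53) and 2 in OSKM-ESCs (Ccne2 and Cdkn1b). For Cdkn2a the order was MEF, OSKM-iPSCs, 2iL-ESCs, 2iL-iPSCs and OSKM-ESCs, with overlapping libraries from 2iL-ESCs downwards. For Cdkn2b it was MEF, OSKM-iPSCs, OSKM-ESCs, 2iL-iPSCs and 2iL-ESCs, with overlap from OSKM-ESCs downwards. For Ccne2 and Cdkn1b all neighbours in the order overlapped.

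Genes with the most similar pattern over the 16 libraries of pluripotent cells were ranked by Pearson r of log2(FPKM + 1) among 8249 genes with a mean FPKM of at least 5. The libraries share cell lines and media, so r is a description. Ccnd1 was nearest to Lin28a (0.952), Sox11 and Sulf1, and Ccnd2 to Eid1 (0.977), Amot and Ptn. Ccnd3 was nearest to Acads (0.978), Aqp3 and Tcl1. Cdkn1a lay nearest to Fam129a (0.942), Slc44a1 and Dact2, Cdkn2a to Nqo1 (0.906), Mta3 and Mvp, and Cdkn2b to Dusp9 (0.934), Ehd4 and Fam43a. For Ccne1 these were Dut (0.897), Endog and Impdh1, and for Trp53 Bop1 (0.915), Thop1 and Noc4l. Ccne2 was nearest to Hmgb1 (0.895), Rbm6 and Hmga2, and Cdkn1b to Nipsnap2 (0.929), Lefty2 and Dpp8. By rank correlation, 8 of these 30 genes were again among the nearest 3. The lowest rank correlation of the 30 was 0.432, for Cdkn2a with Nqo1.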

How the data were processed

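RNA-Seq of poly(A) RNA was measured in 18 libraries (NEBNext Ultra kit). The authors aligned reads to GRCm38 with STAR 2.7.1a and quantified genes with StringTie 2.0. Cuffdiff 2.2.1, which they used for comparisons, was not used here. The deposited FPKM values are fragments per kilobase of transcript, scaled by the authors to the mapped fragments. The deposited TPM values are the same abundances rescaled by the authors to a common total, and were recomputed from FPKM in 2 libraries with a failed value. The deposited coverage is the mean read coverage per base of a gene, without normalization, and was divided here by the median coverage per FPKM of each library. St13 and U2surp, each with a failed value, were left out, and values of 11 repeated identifiers were summed. Depth in reads is unknown, so no counting interval is given, and 2 libraries per group limit precision.

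Groups followed the sample titles. limma 3.58.1 (R 4.3.3; lmFit, then eBayes with a mean-variance trend) was run on log2(FPKM + 1), for genes over 1 FPKM in at least 1 library compared. Each fit held only the groups compared, and day entered as a factor where days were joined. The interaction and the days were F tests. P-values were adjusted by Benjamini-Hochberg over all genes tested. Permutation tests were exact and 2-sided. The alternatives were other pseudocounts, filters and scalings, TPM, coverage, no trend, a single fit, the cutoff of the study (a fold over 2 and an unadjusted p under 0.05), a replicate block and leaving out each library. Coverage was added after the data were examined.

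The 10 genes and the lists were chosen with earlier results of these data known. Named genes were all 10 members, up to 3 rises and 3 falls per list in ESCs over all days, and the 3 nearest patterns per member. Mdm2 was named after its value was seen. Coordinates equal those of GENCODE M21, and promoter windows are from RefSeq (GRCm38.p6). Protein sequences were not used here.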

Additional observations from a re-analysis of the deposited data

Results flagged for a closer look

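The second OSKM-ESC library of day 18 had a Cdkn1a level of 76.1 FPKM, far above the other OSKM-ESC libraries (40.2 to 52.5 FPKM). Its gap to the nearest library was 0.656 of the range of the group. This is above Dixon's critical value for 6 samples, which chance exceeds in about 1 of 20 groups. That rate holds for draws from 1 population, whereas the group pools days. Over these days Cdkn1a passed the F test narrowly (adjusted p = 0.0487). Quantile normalization and TPM lost this call (F test, adjusted p = 0.067 and 0.106). The flagged library itself carried part of the change. Without it, the range of log2 means over days was 0.31 in place of 0.58. The nearest library, at 52.5 FPKM, was the other of day 18. The difference between the media changed with day for 8 genes. The range of the log2 difference over the 3 days was 1.52 for Ccnd1, 2.24 for Ccnd2, 0.69 for Ccnd3, 1.24 for Ccne1, 1.45 for Cdkn1a, 1.12 for Cdkn1b, 1.47 for Cdkn2a and 0.86 for Trp53. The call for Ccnd3 (adjusted p = 0.0331) was lost without any of 7 libraries.

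The difference between the media also differed between iPSCs and the mean over days of ESCs for 6 genes. In iPSCs minus ESCs it was -1.04 for Ccnd1, 0.61 for Ccnd3, 0.87 for Cdkn1a, 2.15 for Cdkn2a, 1.06 for Cdkn2b and -0.47 for Trp53. Strain, passage and derivation differed between the iPSCs and the ESCs together with the cell type, and cannot be told apart from it.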

How the results depend on the processing

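Over all days in ESCs, the 6 calls held with every library left out. By the cutoff of the study, 3378 genes passed over all days, 3116, 3141 and 3324 at days 18, 25 and 38, and 2428 in iPSCs, with 4 members at day 18 and 4 at day 25. Without a filter on low values, limma called 0 members and 0 genes in iPSCs (5014 genes had an unadjusted p under 0.05), and 3316 genes over days in OSKM-ESCs. Quantile normalization, coverage and no trend each left 1 member in iPSCs, with Cdkn2a lost (adjusted p = 0.0579, 0.0565 and 0.0538). A single fit of all 9 groups gave 6 members and 6143 genes in iPSCs, 3112 genes for the interaction and 4253 over days in 2iL-ESCs. Quantile normalization took the share of calls that were higher from 62.8% to 49.0% in iPSCs and from 61.0% to 47.4% for iPSCs against ESCs. Median-ratio scaling moved the median log2 of all genes from 0.19 to 0.02 in OSKM-iPSCs against MEF.

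Uncalled differences turned for Ccne2 at day 25 (0.022 with median-ratio scaling, 0.080 with quantile normalization), and for Ccne1 (-0.035, median-ratio scaling) and Trp53 (0.0019, quantile normalization) at day 38. By coverage the mean share of Ccnd1 among D-type cyclins was 85.46% (OSKM-ESCs), 54.47% (2iL-ESCs), 74.25% (OSKM-iPSCs), 63.22% (2iL-iPSCs) and 61.51% (MEF). Rank correlation kept 8 nearest genes.

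With single libraries left out, members called ranged from 3 to 7 at day 18, 4 to 6 at day 25, 0 to 3 in iPSCs, 3 to 7 for iPSCs against ESCs, 0 to 8 in OSKM-iPSCs against MEF and 3 to 7 over days in OSKM-ESCs. Genes called ranged from 2642 to 4171, 2864 to 6792, 0 to 2076, 1406 to 3656, 0 to 9775 and 1972 to 5608 in the same order, from 7190 to 10144 in 2iL-iPSCs against MEF and from 4157 to 6170 over days in 2iL-ESCs. Log2 differences that changed sign ranged over all days from -0.14 to 0.037 (Ccne1) and -0.036 to 0.12 (Trp53). At single days they ranged from -0.28 to 0.12 (Ccne2, day 18), -0.33 to 0.28 (Ccne2, day 25) and -0.0002473 to 0.049 (Ccne1, day 38). In iPSCs the ranges were -0.061 to 0.87 (Ccnd1), -0.43 to 0.36 (Ccne2) and -0.34 to 0.030 (Cdkn1a), and for iPSCs against ESCs -2.22 to 0.47 (Ccnd2), -0.52 to 0.27 (Ccne2) and -0.15 to 0.51 (Cdkn1b). Against MEF they were -0.38 to 0.0078 (Ccnd3), -0.77 to 0.019 (Ccne2) and -0.12 to 0.54 (Cdkn1b) in OSKM-iPSCs, and -0.72 to 0.030 (Ccne2) in 2iL-iPSCs. The cause was not tested.

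The main fits did not pair the ESC cultures by replicate number. Deviations of same-numbered libraries correlated at 0.131, 0.09 and 0.012 at days 18, 25 and 38. The mark set for pairing was an r over 0.1, which day 18 passed and days 25 and 38 did not. With the replicate block, 6, 8, 7 and 6 members passed over all days and at days 18, 25 and 38, 9 for the interaction, and 7 over days in each medium. Genes called with the block were 6673 over all days, 6531, 6539 and 7538 by day, and 4962 for the interaction. The main fits called 7546, 5546, 6030, 7865 and 5319 in the same order. With the block Trp53 passed at day 18 (adjusted p = 0.0316) and Cdkn2b in the interaction (adjusted p = 0.0349). In the single fit the interaction lost Ccnd2 (adjusted p = 0.102) and Ccnd3 (adjusted p = 0.0583). In iPSCs and MEF no paired analysis was possible because these groups share fewer than 2 numbers.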
